A study of Mus musculus with 7 samples.

Results

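NRF2, encoded by Nfe2l2, is the transcription factor that switches on genes of antioxidant defence and detoxification, and KEAP1 is the adaptor protein that holds it in check. The genes described here are these 2 regulators and 8 classical targets of NRF2 other than glutathione transferases, namely Nqo1, Gclc, Gclm, Txnrd1, Srxn1, Slc7a11, Ephx1 and Gsr. They were taken by gene name and make up 10 of the 54532 genes in the table. Expression was compared in the liver of 30-week-old male C57BL/6 mice, of which 3 had free access to food (ad libitum, AL) and 4 were on calorie restriction (CR). CR began at 12 weeks of age, reached a reduction of 30% in steps and lasted 18 weeks. The labels name no genetic change or drug in either group. CR mice lived 1 to a cage and ate 1 meal a day, while AL mice were caged in groups. Effects of housing and of hours since feeding cannot be told apart from those of the diet.

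In unstressed cells KEAP1 binds newly made NRF2 and delivers it to a ubiquitin ligase, so that most NRF2 protein is degraded. Electrophiles and oxidants modify cysteines of KEAP1, NRF2 then accumulates, enters the nucleus and pairs with a small MAF protein on DNA stretches called antioxidant response elements. Liver is rich in such targets because it clears drugs and reactive metabolites. NRF2 is controlled largely at the level of its protein, which RNA sequencing does not measure.

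In the liver of CR mice, 4 of the 9 members that could be tested rose and 0 fell, against 11.3% and 10.2% of all genes tested. The members were chosen with earlier results of these data known, which can raise such a share. Nqo1 rose most, from 2.36 ± 0.422 FPKM (SD, n = 3) in AL to 27.7 ± 10.99 FPKM (SD, n = 4) in CR. Ephx1, Gclc and Nfe2l2 itself rose by smaller amounts, while Keap1, Gclm, Gsr, Srxn1 and Txnrd1 did not pass the test. FPKM is a fragment count scaled by gene length and sequencing depth, so that levels can be compared between genes of different length. Slc7a11 was nearly absent and was not tested.

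The promoters of the members are shown first, because the antioxidant response element is the sequence through which NRF2 acts. RefSeq promoters on GRCm38.p6, which run from 250 bases before to 50 bases after the annotated start, were searched on both strands for TGACNNNGC, the core letters of that element. Of the members, 8 had an entry, and Gclc and Gsr had none. The letters were found in 4 of these 8, Nfe2l2, Gclm, Srxn1 and Txnrd1, against 13.99% of the 27025 genes in the promoter table, a description with no test. In Srxn1 the match lay 28 bases after the RefSeq start. Txnrd1 has 3 promoters in the table, and the match stood in 1 of them, whose start lies 25255 bases inside the gene as the deposited table bounds it. The matches of the other 3 genes are printed here in 60 bases each, written 5′ to 3′ on the strand of the gene, with the matching letters in capitals. They lay in the stretches chr2:75704854-75704913 (minus strand), chr3:122245397-122245456 (plus strand) and chr10:82859088-82859147 (plus strand), and in Gclm and Txnrd1 they read on the opposite strand.
Nfe2l2: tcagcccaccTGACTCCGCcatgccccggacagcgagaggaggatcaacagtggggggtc
Gclm: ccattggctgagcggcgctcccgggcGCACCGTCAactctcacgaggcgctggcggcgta
Txnrd1: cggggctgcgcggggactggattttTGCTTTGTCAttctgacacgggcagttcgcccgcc

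The match in Nfe2l2 began at base -240 and that in Gclm ended at base -126, counted from the RefSeq start. Txnrd1 was the 1 member that also held the longer form, the same letters followed by A, which stood in 3.449% of genes. A looser form, TGANNNNGC followed by A, overlaps both and was found in Keap1, Slc7a11, Srxn1 and Txnrd1, and in 14.72% of genes. Nqo1 and Ephx1, the members with the highest fold changes, held none of the 3 forms in this window. The 250 bases before their RefSeq starts are shown because the values below turn on these genes. The RefSeq start of Ephx1 lies 3335 bases inside the gene as the deposited table bounds it, so that the bases before the outermost start of Ephx1 were not searched. That of Nqo1 lies 1 base inside. They cover chr8:107403206-107403455 and chr1:181017570-181017819, both on the minus strand, and hold no capitals because there was no match.
Nqo1: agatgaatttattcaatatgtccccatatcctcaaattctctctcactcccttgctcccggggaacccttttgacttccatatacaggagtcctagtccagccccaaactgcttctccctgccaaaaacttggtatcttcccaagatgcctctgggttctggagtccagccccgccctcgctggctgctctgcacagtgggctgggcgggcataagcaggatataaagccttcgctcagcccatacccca
Ephx1: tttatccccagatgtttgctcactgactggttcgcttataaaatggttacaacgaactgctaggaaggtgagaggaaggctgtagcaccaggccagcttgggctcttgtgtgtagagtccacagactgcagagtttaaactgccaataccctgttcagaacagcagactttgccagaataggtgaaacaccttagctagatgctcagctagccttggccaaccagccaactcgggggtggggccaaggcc

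Elements that lie farther from a start are outside the window, as are other starts of the same gene, so the lack of a match says only that these letters are not in it.

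Read totals in genes ran from 15641740 to 19900806 per liver, and 1 read in a gene of 2 kb was worth 0.025 to 0.032 FPKM. Of the 12699 genes tested, 11.3% were called higher in CR and 10.2% lower. All 8 hepatocyte markers, among them albumin, were present in every liver. Albumin made up most of their summed FPKM, which was 23120 to 37920 in AL and 47664 to 51719 in CR. Alb rose and Fgb fell among the 8, and the other 6 did not pass the test. The share of reads from mitochondrial genes was 3.92% to 4.85% in AL and 5.62% to 8.09% in CR, and 6 red blood cell markers summed to 152 to 198 and 251.1 to 397 FPKM. Of the 5 tested, the 4 globin genes rose and Alas2 fell. The part of these shifts in the results was not tested. The liver of AL replicate 3 stood apart in the acute-phase genes Lcn2 and Saa1. Lcn2, which encodes an iron-siderophore binding protein, was at 765 FPKM against 33.8 and 35.1 in the other AL livers and 3.65 to 45.7 in CR. Saa1 was at 4176 FPKM against 771 and 748 in the other AL livers and 2.28 to 36.9 in CR. In both genes CR replicate 3 was the highest CR liver. Several of the results in which AL replicate 3 departed from the other livers are therefore also given without it. In whole liver, fewer cells of a type and less RNA per cell cannot be told apart.

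The regulators were considered first. Nfe2l2 (ENSMUSG00000015839, chr2:75675513-75704641, minus strand) stood at 10.6, 12.5 and 14.1 FPKM in AL replicates 1 to 3 and at 19.8, 18.0, 17.0 and 15.1 FPKM in CR replicates 1 to 4. Every CR liver was above every AL liver, with CR replicate 4 just above AL replicate 3. Nfe2l2 rose with a log2 fold change of 0.50 (SE 0.13, 95% interval 0.18 to 0.81) and an adjusted p = 0.0364 in limma, adjusted by Benjamini and Hochberg's method over the 12699 genes tested. This call was close to the threshold. It was lost in limma without AL replicate 1 (adjusted p = 0.12), AL replicate 2 (0.103), CR replicate 1 (0.0798), CR replicate 2 (0.0845) or CR replicate 3 (0.0678), although the log2 fold change stayed between 0.39 and 0.60 over the alternatives.

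Keap1 (ENSMUSG00000003308, chr9:21229730-21239361, minus strand) gave 9.93, 9.95 and 11.4 FPKM in AL and 9.36, 9.92, 12.9 and 11.5 FPKM in CR. The diets overlapped almost wholly, and the lowest of all livers was a CR liver. The log2 fold change was 0.06 with a 95% interval from -0.25 to 0.36 (limma, adjusted p = 0.798), so that a change of more than 0.36 in either direction lay outside the interval. The ratio of Nfe2l2 to Keap1 FPKM was 1.065, 1.258 and 1.232 in AL and 2.115, 1.811, 1.32 and 1.32 in CR. It was above 1 in every liver, and the 2 CR livers with the lowest ratio were still above the highest AL liver.

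The genes whose pattern over the 7 livers was most like that of Nfe2l2 were Mia3, Cdc14b and Cd47, with root mean square differences of 0.105, 0.118 and 0.122 between centred and scaled log2 values. Mia3, which encodes a receptor that loads large cargo for export from the endoplasmic reticulum, had 31.8 ± 4.44 FPKM (SD, n = 3) in AL and 46.3 ± 5.32 FPKM (SD, n = 4) in CR. Cd47, the cell surface signal against phagocytosis, had 10.8 ± 1.70 and 14.3 ± 1.38 FPKM. Mia3 (limma, adjusted p = 0.0294) and Cdc14b (0.014) passed the test, and Cd47 did not (0.068). Cdc14b, a phosphatase gene, is overlapped on its own strand by Aaed1, a gene with a higher level, so that its reads are uncertain. In all 3, as in Nfe2l2, AL replicate 1 was the lowest liver and CR replicate 1 the highest. The 3 were picked for their likeness to Nfe2l2 over these same livers, so this follows from the choice.

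**Figure D1:**
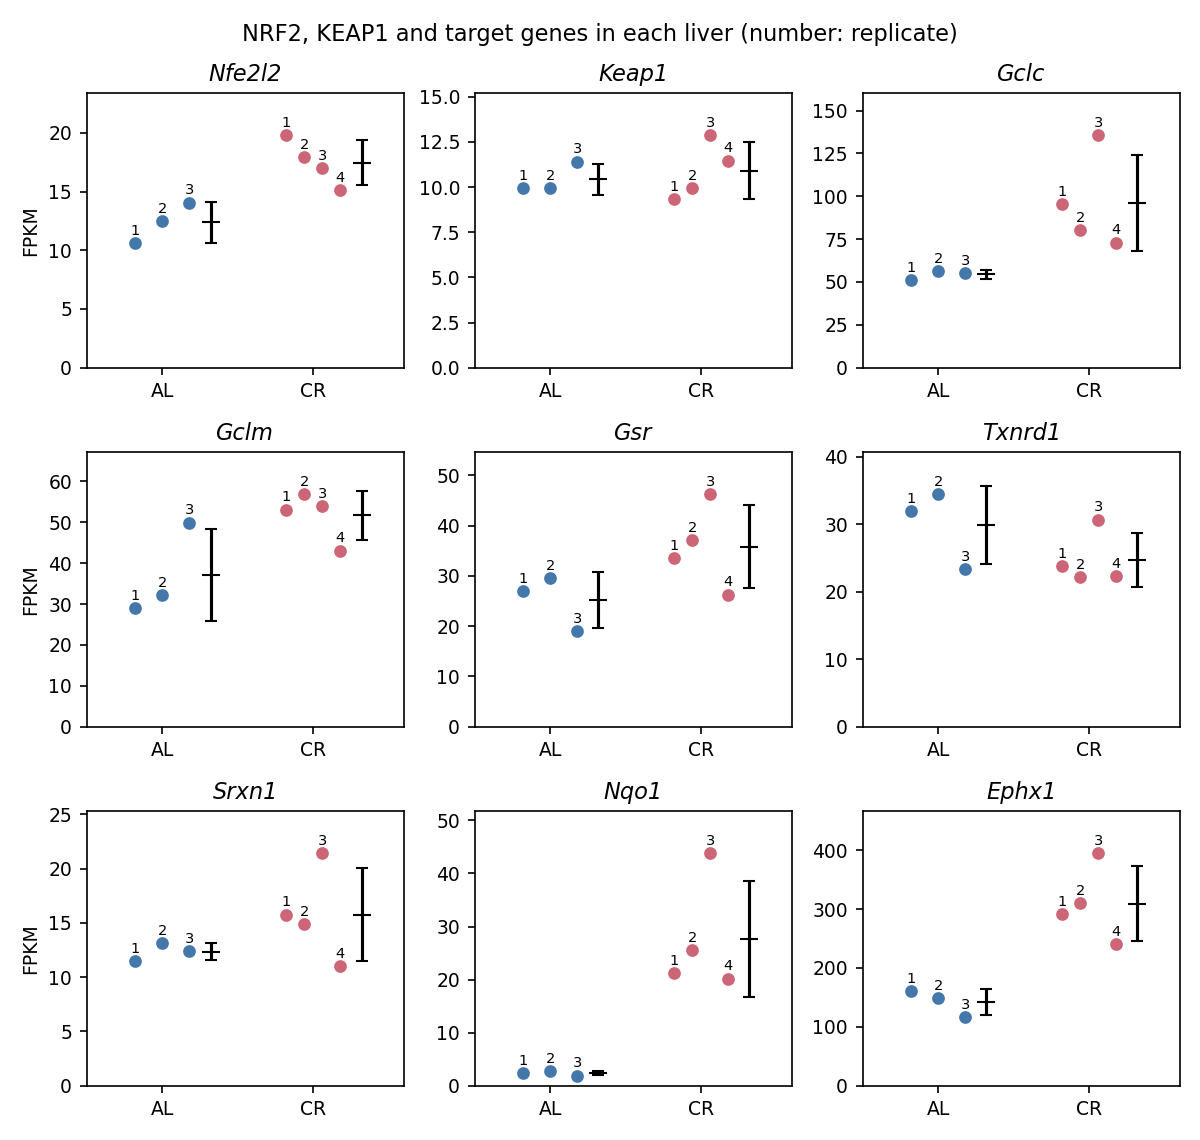
FPKM of the NRF2 members in each liver, 1 panel per gene, with AL (blue) and CR (red) livers as points numbered by replicate and the mean ± SD of each diet as bars. The diets do not overlap in Nfe2l2, Gclc, Nqo1 and Ephx1, and CR replicate 3 is the highest liver in 6 of the 9 tested members.

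Glutathione is made in a pair of steps, and the first is rate-limiting. It is catalysed by glutamate-cysteine ligase, whose catalytic subunit is encoded by Gclc and whose modifier subunit is encoded by Gclm. Gclc (ENSMUSG00000032350, chr9:77754535-77794485, plus strand) had 51.3, 56.6 and 55.3 FPKM in AL and 95.3, 80.2, 136 and 73.0 FPKM in CR. The AL livers lay close together, while the CR livers were all higher and widely spread. Gclc rose with a log2 fold change of 0.78 (SE 0.21, 95% interval 0.30 to 1.25) and a limma adjusted p = 0.0337. In limma the call was lost without AL replicate 1 (adjusted p = 0.107), AL replicate 2 (0.0916), AL replicate 3 (0.0631) or CR replicate 1 (0.072). Without CR replicate 3, the highest liver, it held, with a log2 fold change of 0.60 and a limma adjusted p = 0.026.

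Gclm (ENSMUSG00000028124, chr3:122245557-122270732, plus strand) had 29.0, 32.1 and 49.9 FPKM in AL and 53.1, 56.9, 54.0 and 43.1 FPKM in CR. AL replicate 3 lay above CR replicate 4, and the other AL livers lay below every CR liver. Over all livers the log2 fold change was 0.52 (SE 0.20, 95% interval 0.06 to 0.97) and did not pass the test (limma, adjusted p = 0.102). Without AL replicate 3 it was 0.75 and passed, with a limma adjusted p = 0.0121. The ratio of Gclc to Gclm FPKM was 1.767, 1.76 and 1.107 in AL and 1.794, 1.41, 2.511 and 1.695 in CR. The catalytic subunit thus had the higher FPKM in every liver, and the ratio overlapped between the diets.

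Slc7a11 (ENSMUSG00000027737, chr3:49892526-50443614, minus strand) encodes the cystine importer xCT, which supplies cysteine for glutathione in many cultured cells. It received 0, 1 and 0 reads in AL and 4, 3, 0 and 0 reads in CR, 8 in all. No difference was detectable at this depth. A count of 0 allows up to 3 reads, which is 0.0108 to 0.0138 FPKM in a gene of this length, counting error only.

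Gsr (ENSMUSG00000031584, chr8:33652523-33698163, plus strand) encodes glutathione reductase, which returns oxidised glutathione to its reduced form. It had 26.9, 29.6 and 18.9 FPKM in AL and 33.5, 37.2, 46.2 and 26.3 FPKM in CR. The diets overlapped because CR replicate 4 lay within the AL range. The log2 fold change of 0.50 (SE 0.22, 95% interval -0.01 to 1.01) did not pass the test (limma, adjusted p = 0.145), and it was 0.31 without AL replicate 3, the lowest liver.

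The members of the thioredoxin branch did not pass the test over all livers. Txnrd1 (ENSMUSG00000020250, chr10:82833951-82897712, plus strand), which encodes cytosolic thioredoxin reductase, had 31.9, 34.4 and 23.4 FPKM in AL and 23.8, 22.2, 30.7 and 22.3 FPKM in CR. In each diet replicate 3 departed from the rest, downwards in AL and upwards in CR. Txnrd1 was the 1 tested member with a negative log2 fold change, -0.27 (SE 0.17, 95% interval -0.67 to 0.13, limma, adjusted p = 0.308). With the libraries numbered 3 of both diets left out, a choice made after the values were seen, it was -0.54 and passed the test (limma, adjusted p = 0.0216). Of 17 alternatives this was the 1 in which Txnrd1 passed, so it did not pass without AL replicate 3 alone. Srxn1 (ENSMUSG00000032802, chr2:152105516-152111376, plus strand) encodes sulfiredoxin, which repairs overoxidised peroxiredoxins. It had 11.5, 13.1 and 12.4 FPKM in AL and 15.8, 14.9, 21.4 and 11.02 FPKM in CR, with CR replicate 4 the lowest of all livers and CR replicate 3 the highest. Its log2 fold change of 0.31 (SE 0.20, 95% interval -0.16 to 0.78) did not pass the test (limma, adjusted p = 0.308).

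The enzymes of quinone and epoxide detoxification showed the highest fold changes among the members. Nqo1 (ENSMUSG00000003849, chr8:107388225-107403206, minus strand) encodes the quinone reductase that turns quinones into hydroquinones without a radical intermediate. It had 2.45, 2.73 and 1.90 FPKM in AL and 21.2, 25.5, 43.8 and 20.2 FPKM in CR. These values rest on 46 to 72 reads per AL liver and 628 to 1165 reads per CR liver, and the lowest CR liver was far above the highest AL liver. Nqo1 rose with a log2 fold change of 3.44 (SE 0.27, 95% interval 2.81 to 4.07), a fitted fold of 10.8 (7.01 to 16.8), and a limma adjusted p = 2.43e-04. It passed the test under each of the 17 alternatives, with log2 fold changes from 3.03 to 3.57.

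Ephx1 (ENSMUSG00000038776, chr1:180976210-181020904, minus strand) encodes microsomal epoxide hydrolase, which opens reactive epoxides to diols. It had 160.3, 149.6 and 117 FPKM in AL and 292, 310.1, 395 and 241 FPKM in CR, so that it was the most abundant member in both diets. All CR livers were above all AL livers by a wide margin. Ephx1 rose with a log2 fold change of 1.11 (SE 0.19, 95% interval 0.67 to 1.55), a fitted fold of 2.16, and a limma adjusted p = 0.00674. It also passed the test under each of the 17 alternatives, with log2 fold changes from 0.85 to 1.22.

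**Figure D2:**
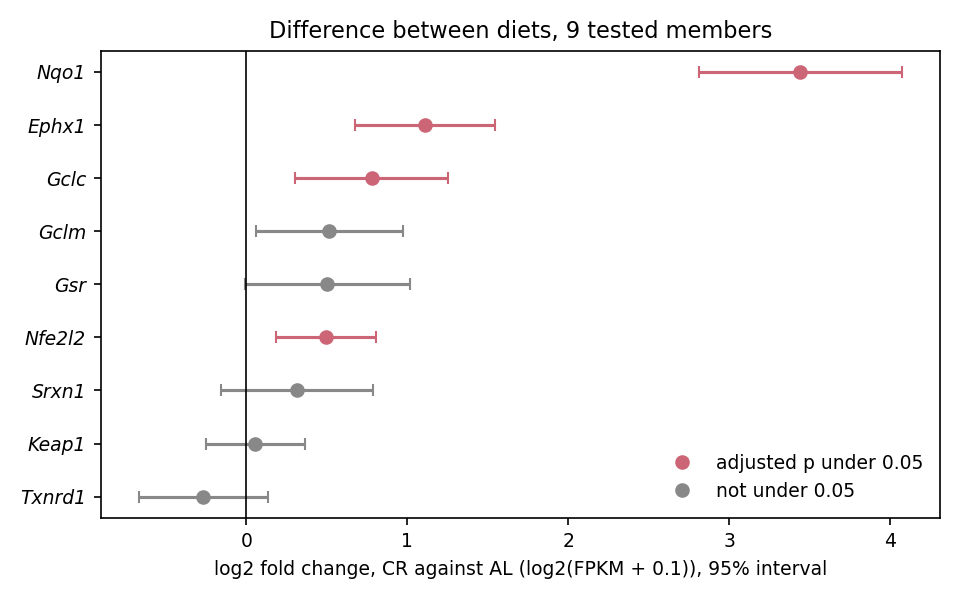
Log2 fold change of CR over AL for the 9 tested members on the log2(FPKM + 0.1) scale, with 95% intervals from limma as bars, in red for an adjusted p under 0.05 and in grey otherwise. Nqo1 at 3.44 and Ephx1 at 1.11 lie apart from the other members, which run from -0.27 to 0.78.

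Over the set, 4 of 9 members were called higher, against 11.3% of the genes tested. Every CR liver was above every AL liver in 4 of 9, against 17.6% of the genes tested. As the members were chosen with earlier results known, these shares are a description with no test. At an unadjusted p under 0.05, limma gave 5 higher and 0 lower, and limma-voom on the recovered reads called 4 higher and 0 lower. The 9 members had a median log2 fold change of 0.50, against -0.002 for all genes tested, and 8 of the 9 were positive. By mean FPKM in AL, the order was Ephx1, Gclc, Gclm, Txnrd1, Gsr, Nfe2l2, Srxn1, Keap1 and Nqo1. In that order, the ranges of Gclm and Txnrd1, of Txnrd1 and Gsr, and of Nfe2l2 and Srxn1 overlapped. In CR the order was Ephx1, Gclc, Gclm, Gsr, Nqo1, Txnrd1, Nfe2l2, Srxn1 and Keap1, so that Nqo1 moved from the 9th to the 5th place. The ranges of neighbours from Gclm to Txnrd1 and from Nfe2l2 to Keap1 overlapped in CR, while Ephx1 and Gclc each stood clear of the next gene in both diets.

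The CR livers differed among themselves in the members. CR replicate 3 was the highest CR liver in 7 of the 9 tested members, all but Nfe2l2 and Gclm, and CR replicate 4 was the lowest in 7. Relative to the mean of their own diet, the members lay at a median of 0.37 on the log2 scale in CR replicate 3, with 8 above and 1 below, and at -0.34 in CR replicate 4, with 1 above and 8 below. In CR replicate 3 the summed FPKM of 12 Kupffer cell and macrophage markers was 136. It was 270.4 to 389 in the other CR livers and 255 to 369.6 in AL. Of the 12, 1 rose and 1 fell, 8.33% each, beside 11.3% and 10.2% of all genes tested. The sum of 9 endothelial markers was 34.4 in CR replicate 3, against 63.7 to 72.8 in the other CR livers and 72.4 to 81.2 in AL. Of these 9, limma called 0, gave 2 lower at an unadjusted p under 0.05, and limma-voom called 1 lower. The sum of 9 stellate cell and fibroblast markers was 23.4 in CR replicate 3, 35.1 to 59.2 in the other CR livers and 27.5 to 39.1 in AL. Of these 9, 0 rose and 2 fell, 22.2%. The part of these cells in the members' values was not tested. Without CR replicate 3, Nqo1 still rose by 3.20 and Ephx1 by 0.98 on the log2 scale, with limma adjusted p = 9.51e-05 and 0.012.

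**Figure D3:**
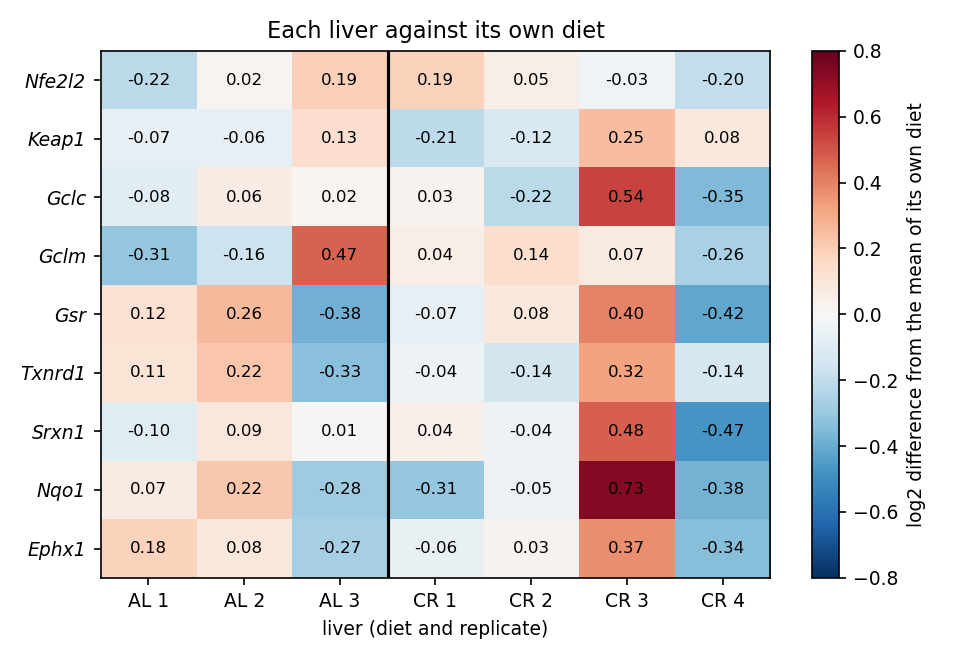
Deviation of each tested member from the mean of its own diet in each liver, on the log2(FPKM + 0.1) scale, as a heat map with genes in rows, livers in columns, red above and blue below the diet mean and the value in each cell. Over the 9 genes, in CR replicate 3 the median is 0.37 and in CR replicate 4 it is -0.34, and in the other 5 livers it lies between -0.067 and 0.084.

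Beyond the members, 109 further genes of the pathway were followed in 5 lists, of which 100 could be tested, 22 rose and 6 fell. Of all genes tested, 11.3% were called higher and 10.2% lower. The lists, like the members, were chosen with earlier results of these data known, which can raise the shares called. Of the 18 regulators and partners of NRF2, 16 were tested, 0 rose and 2 fell, with a median log2 fold change of -0.29. At an unadjusted p under 0.05, limma gave 0 higher and 5 lower, and limma-voom called 0 higher and 2 lower. Syvn1, which encodes a ubiquitin ligase of the endoplasmic reticulum, had 54.6, 55.5 and 18.9 FPKM in AL and 8.36 to 11.8 FPKM in CR. Its log2 fold change was -2.005 (SE 0.37, limma, adjusted p = 0.00902), and -2.62 with the libraries numbered 3 of both diets left out. The call held in 16 of 17 alternatives, the fit without AL replicate 3 among them. It was lost with the replicate number as a block (limma, adjusted p = 0.0638). AL replicate 3 was low, and Mrpl49, on the other strand, overlaps Syvn1 at 54.5% of its mean FPKM, so that reads could be shared where the counting did not use strand. Rxra, which encodes a nuclear receptor partner, went from 109.9 ± 6.87 FPKM (SD, n = 3) to 83.5 ± 8.87 FPKM (SD, n = 4), a log2 fold change of -0.40 (limma, adjusted p = 0.0458). Its call was lost in limma without any single liver except CR replicate 4, with adjusted p from 0.0642 to 0.162. Sqstm1 and Dpp3, whose proteins bind KEAP1, did not pass over all livers. Sqstm1, the autophagy receptor p62, had a log2 fold change of -0.31 (limma, adjusted p = 0.279, and 0.0465 with the libraries numbered 3 left out). Dpp3, a peptidase, had -0.40 (limma, adjusted p = 0.085). Without AL replicate 3, 1 regulator rose. The number that fell was 3 without CR replicate 4 and 1 without AL replicate 1 or 2 or CR replicate 1, 2 or 3.

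Of 34 other NRF2 targets, 32 were tested, 11 rose and 0 fell, with a median log2 fold change of 0.38. The share that rose was 34.4%, beside 11.3% of all genes tested, of which 10.2% fell. This list was chosen with earlier results known, and the difference in shares was not tested. At an unadjusted p under 0.05, limma gave 16 higher and 1 lower, limma-voom called 12 higher and 0 lower, and without AL replicate 2, 7 rose. Cyp2a5, a P450 that hydroxylates coumarin, went from 146 ± 30.3 FPKM (SD, n = 3) to 1926 ± 323 FPKM (SD, n = 4), a log2 fold change of 3.72 (SE 0.19, limma, adjusted p = 2.09e-05), with 12.1% of its sequence words shared with other genes. Abcc4, an efflux transporter of the basolateral membrane, went from 0.596 ± 0.137 to 4.88 ± 1.19 FPKM, a log2 fold change of 2.83 with the pseudocount of 0.1 and of 1.86 with a pseudocount of 1. Cbr1, a carbonyl reductase, went from 16.9 ± 3.09 to 72.5 ± 11.8 FPKM, a log2 fold change of 2.10 (SE 0.17, limma, adjusted p = 2.41e-04). In these 3 genes every CR liver was above every AL liver, as in 17.6% of all genes tested. They were named for the smallest adjusted p of the list, which favours such a separation. Abcc4 was near the filter of 0.5 FPKM in AL, at 0.442 to 0.702 FPKM. Fth1, the ferritin heavy chain, rose with a log2 fold change of 0.73 (SE 0.17, limma, adjusted p = 0.0208), a call lost in limma without AL replicate 1 (0.0535) or AL replicate 2 (0.0864). The other 7 that rose, named after their values were seen, were Ces1g, Htatip2, Pir, Abcc2, Ugdh, Tkt and Blvrb, with log2 fold changes from 0.76 to 1.76. Of these calls, limma lost that of Abcc2 without AL replicate 1 (0.0615) or AL replicate 2 (0.0649), that of Blvrb without AL replicate 2 (0.0509) and that of Ugdh without any single liver except CR replicate 4 (0.088 to 0.129). Hmox1, the heme oxygenase often used as a sign of NRF2 activity, had 23.95, 23.1 and 10.95 FPKM in AL and 17.6, 23.2, 10.8 and 19.3 FPKM in CR. The diets overlapped, and its log2 fold change of -0.09 (SE 0.34, limma, adjusted p = 0.866) turned positive without AL replicate 1, AL replicate 2 or CR replicate 3.

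Of 24 further genes of glutathione synthesis and turnover, 21 were tested, 4 rose and 3 fell, with a median log2 fold change of 0.17. These are 19.05% and 14.3%, beside 11.3% and 10.2% of all genes tested. Limma gave 6 higher and 5 lower at an unadjusted p under 0.05, and limma-voom called 4 and 4. Cth, which encodes the enzyme that makes cysteine from cystathionine, went from 90.9 ± 2.47 FPKM (SD, n = 3) to 269 ± 43.8 FPKM (SD, n = 4), a log2 fold change of 1.55 (SE 0.15, limma, adjusted p = 6.32e-04). Cbs, which encodes the enzyme just before it and was named after its values were seen, went the other way with a log2 fold change of -0.63 (SE 0.17, limma, adjusted p = 0.0379). The call of Cbs was lost in limma without AL replicate 1, AL replicate 2, CR replicate 1, CR replicate 2 or CR replicate 4, with adjusted p from 0.077 to 0.135. Glrx, the glutaredoxin that removes glutathione from proteins, rose with a log2 fold change of 1.34 (SE 0.17, limma, adjusted p = 0.00227). Lap3, a peptidase that can act on cysteinylglycine, fell with a log2 fold change of -0.71 (SE 0.11, limma, adjusted p = 0.0051). The others that passed, named after their values were seen, were Gpx4, with 25.2% of its words shared with other genes, and Slc25a39, which rose, and Glo1, which fell. Limma lost the call of Gpx4 without AL replicate 2 (0.0568), that of Glo1 without AL replicate 1 (0.0645) or AL replicate 2 (0.0713) and that of Slc25a39 without AL replicate 1 or 2 or CR replicate 2, 3 or 4 (0.0504 to 0.104). Gpx1, the most abundant glutathione peroxidase gene of the list, had 1126 ± 185 FPKM in AL and 1443 ± 93.0 FPKM in CR and did not pass (limma, adjusted p = 0.1002), but did without AL replicate 3 (0.0338). Without AL replicate 1 or AL replicate 2, 1 gene of the list fell in place of 3.

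Of 24 genes of the thioredoxin and peroxiredoxin system, all of which were tested, 2 rose and 1 fell, with a median log2 fold change of 0.12. These are 8.33% and 4.17%, both below the 11.3% and 10.2% of all genes tested. Limma gave 6 higher and 3 lower at an unadjusted p under 0.05, limma-voom called 4 higher and 1 lower, and 4 rose with quantile normalization. Prdx4, the peroxiredoxin of the endoplasmic reticulum, fell from 31.3 ± 4.48 FPKM (SD, n = 3) to 16.9 ± 1.45 FPKM (SD, n = 4), a log2 fold change of -0.88 (SE 0.13, limma, adjusted p = 0.00343). Sephs1, related to selenophosphate synthetase, rose with a log2 fold change of 0.57 (SE 0.11, limma, adjusted p = 0.0101). Txndc17, a small thioredoxin-like protein, rose with a log2 fold change of 0.38 (SE 0.10, limma, adjusted p = 0.0367), a call lost in limma without any single liver except AL replicate 3 (0.0533 to 0.129). Txn1, the thioredoxin that TXNRD1 reduces, had 143 ± 11.5 FPKM in AL and 125 ± 24.4 FPKM in CR and did not pass (log2 fold change -0.20, limma, adjusted p = 0.397). Prdx1, at 251.2 ± 22.8 and 286 ± 42.9 FPKM, and Sephs2, at 245 ± 10.5 and 236 ± 16.0 FPKM with 33.4% of its words shared with other genes, did not pass either. The number that rose was 5 without AL replicate 3 and 1 without AL replicate 1 or 2 or CR replicate 1, 2 or 3.

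Of 15 genes of quinone, epoxide and carbonyl reduction, 13 were tested, 6 rose and 0 fell, with a median log2 fold change of 0.50. The share that rose was 46.2%, beside 11.3% of all genes tested, of which 10.2% fell. Here too the list was chosen with earlier results known, and the difference in shares was not tested. At an unadjusted p under 0.05, 8 were higher and 0 lower in limma, and limma-voom called 6 higher and 0 lower. Cbr1 is on this list too. Cryz, a quinone reductase of another family than NQO1, went from 11.2 ± 0.862 FPKM (SD, n = 3) to 19.1 ± 0.594 FPKM (SD, n = 4), a log2 fold change of 0.77 (SE 0.09, limma, adjusted p = 0.00164). Dcxr, a carbonyl and xylulose reductase, rose with a log2 fold change of 0.65 (SE 0.10, limma, adjusted p = 0.0051). Cyb5a, cytochrome b5, rose with a log2 fold change of 0.41 (SE 0.10, limma, adjusted p = 0.0257), a call lost in limma without AL replicate 1 (0.0898), AL replicate 2 (0.0772), CR replicate 1 (0.06) or CR replicate 2 (0.0546). Por and Cbr4, named after their values were seen, were the other genes that rose, and limma lost the call of Por without AL replicate 2 (0.0527) and that of Cbr4 without any single liver except AL replicate 3 (0.0513 to 0.11). Ephx2, the soluble epoxide hydrolase, had 229.96 ± 13.1 FPKM in AL and 216 ± 31.5 FPKM in CR, with a log2 fold change of -0.10 (95% interval -0.42 to 0.22, limma, adjusted p = 0.640), unlike Ephx1, which rose. The difference between the 2 hydrolases was not tested. Without AL replicate 2, 3 genes of this list rose.

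**Figure D4:**
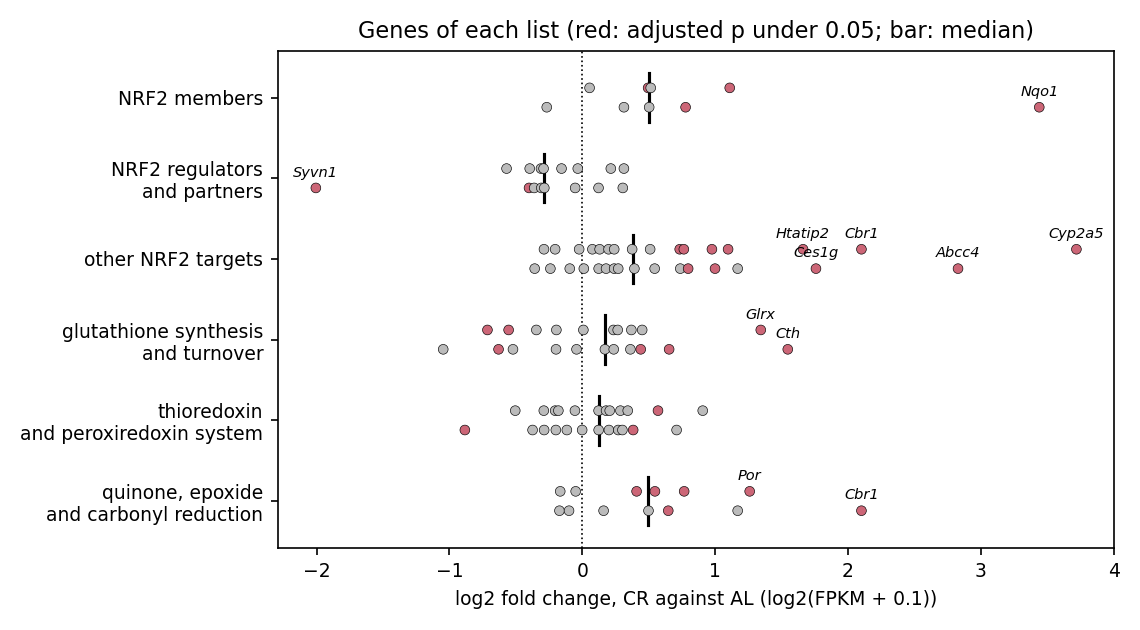
Log2 fold change of CR over AL for each tested gene of the 5 pathway lists and of the members, with red points for a limma adjusted p under 0.05, grey points otherwise and a bar for the median of each list. The medians run from -0.29 for regulators and partners to 0.50 for the members and for quinone, epoxide and carbonyl reduction.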

How the data were processed

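Liver RNA of 7 mice, 3 AL and 4 CR, was measured by RNA-seq with 1 library per mouse. Samples were grouped by diet from the sample labels. The authors deposited FPKM values for 54532 genes. Per the submitters' processing notes, reads were handled with CASAVA 2.19, aligned with HISAT2 2.0.5 and assigned to genes with featureCounts 1.5.0-p3. These notes name the builds GRCm38 and mm10. DESeq2 was used for the authors' own test. The strand setting of the counting and the formula of the deposited FPKM are not given in the sources used here. The number of value columns of no known sample was 0.

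FPKM values were transformed to log2(FPKM + 0.1), so that fold changes of low genes are understated. Genes that reached 0.5 FPKM in 3 or more libraries, 12699 in all, entered a two-sided test in limma 3.58.1 with a robust mean-variance trend. R 4.3.3 and statmod 1.5.0 were used. P-values were adjusted over these genes by the Benjamini-Hochberg method, and calls were made at an adjusted p under 0.05. FPKM times gene length gave whole reads in 100% of values (within 0.01 reads), and limma-voom on these reads was an alternative. The test was checked on simulated data that had the same spread for every gene. It recovered 28 of 50 genes raised 2-fold and 25 of 42 lowered to 0.5-fold. At 4-fold and 0.25-fold it recovered 48 of 50 and 41 of 43. Of 12542 unchanged genes, 12 were called. Other alternatives changed the pseudocount (0.01, 1), the filter, the scaling, the variance model and the libraries used, or added the replicate number as a block.

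The members and lists were chosen with earlier results of these data known. Named genes are the members, from every list the 3 genes of smallest adjusted p and the 2 of highest mean FPKM, Hmox1, Txn1 and the 3 genes nearest to Nfe2l2 in pattern. Others are marked as named after their values were seen. Shared sequence is given as the share of all 100-base words in the GENCODE M21 transcripts of a gene that other genes also hold. Coordinates are those of the deposited table, on GRCm38. Python 3.11.15 and matplotlib 3.10.9 drew the figures.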

Additional observations from a re-analysis of the deposited data

Results flagged for a closer look

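Abcc2, the canalicular efflux transporter, had 167.7 FPKM in CR replicate 1, whereas the other 3 CR livers lay between 110.8 and 113.6 FPKM. The gap made up 0.951 of the range of the CR livers. Ugdh, which makes the sugar donor for glucuronidation, had 30.82 FPKM in CR replicate 4, within the AL range of 25.5 to 32.1 FPKM, whereas the other 3 CR livers lay between 65.58 and 66.27 FPKM, a gap of 0.980 of the range. Both were picked out because 1 liver lay far from the others of its diet. The 2 cases are among 49 genes examined in this way, and chance picks out about 1 in 20 groups.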

How the results depend on the processing

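Among all genes tested, 2724 were called (1433 higher, 1291 lower). With the replicate number as a block, 990 were called (482 higher, 508 lower), and without 1 library at a time 1209 to 2663 (669 to 1514 higher, 540 to 1149 lower). There was no sign that the same numbers pair the samples. Deviations of libraries with the same number correlated at 0.03, -0.04 and -0.06, and those with different numbers at -0.077 to 0.095. With so few livers this cannot exclude a pairing. With the block, 2 members rose in place of 4, and the calls of Nfe2l2 (adjusted p = 0.101) and Gclc (0.0571) were lost in limma. Those of Syvn1 (0.0638) and Rxra (0.0908) were lost too, so that 0 regulators and partners fell in place of 2. With no filter on low values 2 members rose, the limma adjusted p of Nfe2l2 being 0.0734 and that of Gclc 0.0652, and with neither trend nor robust variance 3 rose. Without 1 library at a time, 2 to 4 rose and 0 fell. With the libraries numbered 3 of both diets left out, an alternative chosen after the data were seen, 5 rose and 1, Txnrd1, fell. Beside the count of 0 members that fell, limma gave 0 at an unadjusted p under 0.05. The log2 fold change changed sign in Keap1 (-0.028 without CR replicate 3, up to 0.124 without another library) and Hmox1 (0.101 without AL replicate 1, 0.076 without AL replicate 2 and 0.125 without CR replicate 3, down to -0.460 without AL replicate 3). Nqo1 and Ephx1 passed the test under all 17 alternatives. Of 34 called genes followed, 13 kept their call and direction throughout. The cause of these shifts was not tested. A promoter window of 1000 bases was not run, as no genome was used here. With 3 and 4 animals, differences the size of that in Srxn1 or Gsr did not pass the test, which does not show that the diets were alike.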
